A study of Mus musculus with 12 samples.

Results

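The mitochondrial genome carries the genes of 13 proteins, and 6 of them are cytochrome or ATPase subunits: CYTB, COX1, COX2, COX3, ATP6 and ATP8. These 6 rows, named without an mt- prefix, were taken by symbol from a table of FPKM values for 24824 genes. The genes were chosen by readout: the levels of the mitochondrial genes in groups C and B were already known when the 6 were picked. Differences between groups C and B are therefore given for these genes as a description, with no test. Whether values of other groups also led to the choice is not stated. The p-values of these genes in the other comparisons may thus not be independent of the choice.

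The libraries came from AML12, an immortalized line of mouse hepatocytes labelled WT and known to come from mice with a transforming growth factor alpha transgene, in 4 groups of 3 libraries. Group A was kept in standard growth medium for 24 h. Group B received 300 µM CuCl2 with 40 nM elesclomol, an ionophore that carries copper into cells (together Cu/ES). Group C had the same Cu/ES plus 1000 µM taurocholic acid (TCA), a bile acid, and group D had 1000 µM TCA without Cu/ES, each for 24 h. The study asked how copper overload changed transcription in hepatocytes and what the bile acid added. All libraries were made from polyadenylated RNA of 1 cell line, and the labels do not say whether the 3 libraries of a group came from separate cultures, so p-values measure only the spread between these libraries. Of 8 hepatocyte markers with a row in the table, 3 (Krt8, Krt18 and Afp) had a mean of at least 1 FPKM in group A, while Alb and Hnf4a were listed at 0 there.

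Each of these 6 genes encodes a membrane subunit that is made inside the mitochondrion. CYTB encodes cytochrome b, the quinol-binding core of complex III. COX1, COX2 and COX3 form the core of complex IV, cytochrome c oxidase, in which COX1 and COX2 hold the copper centers. ATP6 and ATP8 are subunits of the membrane part of ATP synthase, and ATP6 lines the proton channel. The genes of both strands are transcribed as long precursors that are cut into separate mRNAs, most of which are polyadenylated, and all other subunits of these complexes come from nuclear genes. Mitochondrial mRNAs are usually among the most abundant RNAs of a liver cell.

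The sequences bear on how the levels can be read, because 4 of the 6 genes have a long copy in the nuclear genome. Every stretch of 50, 100 and 150 bases of each gene was searched on both strands in the nuclear transcripts of GENCODE M21 (build GRCm38), which is not the GRCm39 build named for the deposited values. For COX2, 99.5% of the 100-base stretches were also found in an annotated nuclear transcript. For COX3 this share was 99.9% and for ATP6 it was 99.5%. For COX1 it was 30.8%, and for CYTB and ATP8 no 100-base stretch was found.

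The first 60 bases of COX2 and of its copy Gm28661 show an unbroken match, and the match ran over all 681 bases compared. The first 60 bases of ATP6 and COX3 are shown for the same reason, since they were likewise identical to their copies Gm10925 (678 bases compared) and Gm28437 (783 bases compared).
COX2: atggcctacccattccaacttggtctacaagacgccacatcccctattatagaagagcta
Gm28661: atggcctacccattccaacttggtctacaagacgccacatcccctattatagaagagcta
ATP6: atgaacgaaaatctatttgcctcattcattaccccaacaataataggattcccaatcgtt
COX3: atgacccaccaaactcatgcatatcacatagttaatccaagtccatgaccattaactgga

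COX1 is copied in part. Of its 50-base stretches, 51.1% were found in a nuclear transcript, spread over 3 copies, and the copy that holds most of them, Gm29216, has 28.7%. Gm29216 faces COX1 from base 1054 of the gene (counted from 1 at its first base) to its last base, 1545. Capitals mark the 6 bases at which gene and copy differ, T1056A, C1057T, A1059G, A1060G, C1062A and A1066T. From base 1067 on, the pair was identical for 479 bases, 31.0% of the gene.
COX1: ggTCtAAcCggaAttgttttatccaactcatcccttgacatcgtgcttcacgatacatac
Gm29216: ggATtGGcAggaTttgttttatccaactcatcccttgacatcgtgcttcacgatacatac

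The 4 copies lie on chromosome 1 of GRCm38, on the same strand and in the order of the mitochondrial genes. COX2 and ATP6 start 914 bases apart in the mitochondrial genome, and their copies start 914 bases apart as well. The gap between the copies of COX2 and ATP6 is 233 bases long, against 230 in the mitochondrial genome, where ATP8 lies. Whether that gap holds a copy of ATP8 was not examined, since only annotated transcripts were searched. None of these copies had a row in the table.

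ATP8 and ATP6 overlap, and are carried on 1 shared mRNA, which spans 842 bases from the first base of ATP8 to the last of ATP6. Their rows are therefore not separate RNAs. The overlap is 43 bases, which is 21.1% of ATP8 and 6.31% of ATP6. It is printed here with the start codon of ATP6 in capitals, and reads from it cannot be given to either gene by sequence alone.
ATP8 and ATP6 overlap: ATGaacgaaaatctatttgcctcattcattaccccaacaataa

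FPKM is a number of reads divided by gene length and by the library's total of counted reads, which puts genes of different length on a common scale. Comparisons between genes are limited where bases are shared with nuclear copies (COX2, COX3, ATP6 and part of COX1) or between ATP8 and ATP6. Averaged over all 12 libraries, COX1 stood at 9010 FPKM and CYTB at 5749 FPKM. COX2 stood at 57.8, ATP6 at 52.4, COX3 at 20.1 and ATP8 at 4.11 FPKM. COX1 had the highest FPKM of the whole table in each of the 12 libraries. In group A, CYTB exceeded COX2, the next gene down, 95.7-fold by means. Libraries of COX2 and ATP6 overlapped in groups A, B and C, so the order of these genes was not resolved there, while COX1, CYTB, COX3 and ATP8 kept separate levels in every group. COX1 and CYTB together held between 99.4% and 99.7% of the reads of the 6 genes in every library.

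Low levels and long nuclear copies went together for most of the mitochondrial genes. The 3 cytochrome and ATPase genes with over 99% of their 100-base stretches in a nuclear transcript, COX2, COX3 and ATP6, stood between 20.1 and 57.8 FPKM. ND3 and ND4L, with 97.6% and 98.5%, stood at 10.3 and 11.9 FPKM. CYTB, ND1, ND2 and ND5, with at most 3.19%, stood between 1047 and 5749 FPKM. COX1 and ND4, with 30.8% and 60.8%, stood at 9010 and 1114 FPKM. ATP8 and ND6 had no such stretch and yet stood at 4.11 and 31.7 FPKM. Since only annotated transcripts were searched, a copy of ATP8 in the gap between the copies of COX2 and ATP6 could have been missed. How the counting treated reads that match more than 1 place is not given in the sources used here, and the part of these copies in the levels was not tested. The levels of COX2, COX3 and ATP6 are therefore uncertain, and their differences between groups may be so too. Fold changes are taken within each gene, which does not remove this limit. It also holds where these genes are set against other genes below.

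**Figure D1:**
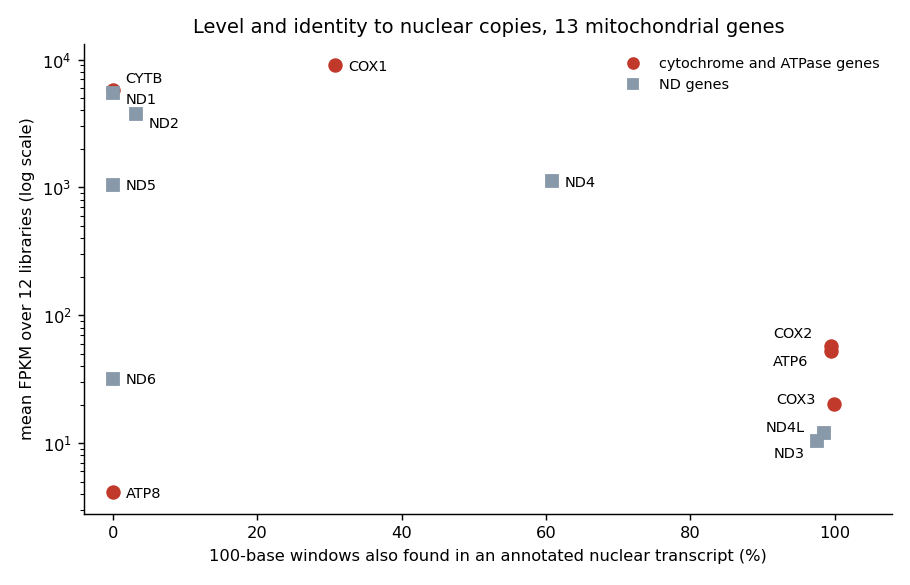
Mean FPKM over the 12 libraries (log scale) against the percentage of 100-base stretches also found in an annotated nuclear transcript, for the 6 cytochrome and ATPase genes (red circles) and the 7 ND genes (gray squares). COX2, COX3 and ATP6 sit at the right near the bottom, COX1 and CYTB at the top, and ATP8 at the lower left.

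CYTB, the complex III subunit, was lowest in group A and highest in group C. Its libraries stood at 2972, 3719 and 2932 FPKM in group A and at 6547, 7475 and 6277 FPKM in group B. Those of group C stood at 8880, 9701 and 8505 FPKM and those of group D at 3780, 4299 and 3907 FPKM. No pair of groups overlapped. Between 130222 and 387470 reads per library lay behind these values, so counting error was small beside the spread between libraries, whose coefficient of variation was between 6.77% and 13.8%.

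COX1, the catalytic subunit of complex IV, was lowest in group D. Its libraries stood at 6853, 6727 and 6984 FPKM in group A, at 10746, 10173 and 10282 FPKM in group B, at 13786, 11690 and 12834 FPKM in group C, and at 5959, 5644 and 6439 FPKM in group D. The order D, A, B, C held without overlap.

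COX2 and COX3 followed COX1 at a much lower level. COX2 libraries stood at 38.5, 31.5 and 30.6 FPKM in group A, at 66.0, 86.3 and 67.3 FPKM in group B, at 103, 101 and 77.8 FPKM in group C, and at 29.5, 27.8 and 35.1 FPKM in group D. Groups A and D overlapped, and so did groups B and C. COX3 libraries stood at 15.5, 12.3 and 12.3 FPKM in group A, at 21.0, 25.5 and 22.8 FPKM in group B, at 30.7, 37.5 and 29.2 FPKM in group C, and at 12.9, 9.60 and 12.2 FPKM in group D. For COX3 all libraries of group C lay above those of group B, and only groups A and D overlapped.

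ATP6, the proton channel subunit, stood at 25.7, 34.6 and 25.7 FPKM in group A, at 80.6, 76.4 and 61.1 FPKM in group B, at 67.0, 118 and 70.0 FPKM in group C, and at 21.3, 23.7 and 24.1 FPKM in group D. Group D lay below group A without overlap, and groups B and C overlapped. ATP8 stood at 4.86, 1.76 and 0.877 FPKM in group A, at 11.9, 3.52 and 4.94 FPKM in group B, at 3.03, 8.71 and 6.83 FPKM in group C, and at 1.23, 0.124 and 1.49 FPKM in group D. ATP8 overlapped between each pair of neighbors in the order D, A, C, B. Its values rest on 38, 14 and 7 reads in untreated libraries, 77, 23 and 31 with Cu/ES, 18, 62 and 45 with Cu/ES and TCA, and 10, 1 and 12 with TCA alone, so differences in ATP8 were hardly detectable at this depth.

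**Figure D2:**
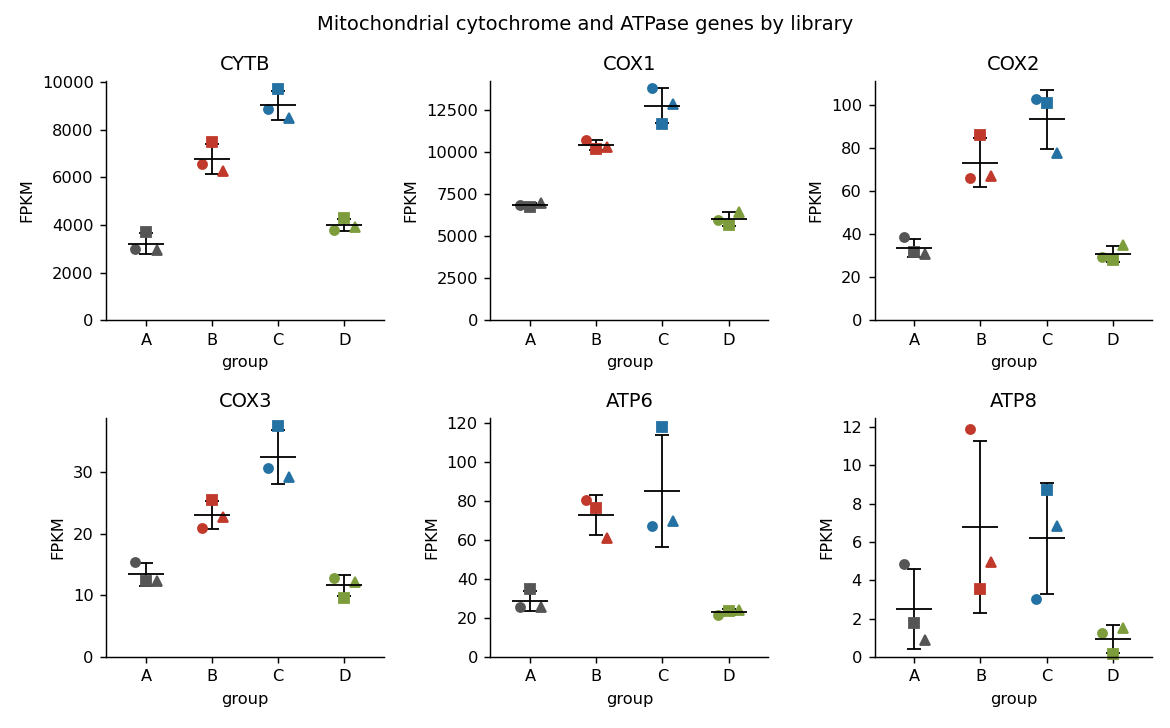
FPKM of each gene in the 3 libraries of groups A (untreated), B (Cu/ES), C (Cu/ES with TCA) and D (TCA); circles, squares and triangles are replicates 1, 2 and 3, and black bars give the mean ± SD (n = 3). Groups B and C lie above groups A and D for CYTB, COX1, COX2, COX3 and ATP6, and for ATP8 neighboring groups in the order D, A, C, B overlap.

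Group B vs. A asked what Cu/ES changed. All 6 genes, of which ATP8 and ATP6 share 1 mRNA, took a larger share of the RNA in group B, while most genes took a smaller one. CYTB rose 2.11-fold by means, from 3207 ± 443 to 6766 ± 629 FPKM (SD, n = 3; log2 fold change 1.08 ± 0.10 SE, limma, adjusted p = 1.05e-07). COX1 rose 1.52-fold, from 6855 ± 129 to 10400 ± 304 FPKM (log2 fold change 0.60 ± 0.08, limma, adjusted p = 2.88e-06). ATP6 rose from 28.7 ± 5.16 to 72.7 ± 10.3 FPKM (log2 fold change 1.32 ± 0.18, limma, adjusted p = 8.53e-06).

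The other cytochrome oxidase genes also rose in group B. COX2 went from 33.5 ± 4.35 to 73.2 ± 11.4 FPKM (log2 fold change 1.10 ± 0.13, limma, adjusted p = 1.89e-06), and COX3 went from 13.4 ± 1.82 to 23.1 ± 2.29 FPKM (log2 fold change 0.75 ± 0.13, limma, adjusted p = 5.27e-05). ATP8 passed the threshold with a log2 fold change of 1.17 ± 0.47 (limma, adjusted p = 0.0282), although its libraries overlapped. Over the alternatives tried for ATP8 the adjusted p ran from 6.63e-05 to 0.151, and 11 of 18 settings, the reported one included, called it. Without the first library of group B its log2 fold change was 0.73 (limma, adjusted p = 0.151).

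In all, 6 of 6 genes were called higher in group B, where called means an adjusted p under 0.05 by limma over the 10615 genes tested. Of all genes tested, 20.1% were called higher and 72.0% lower. For 5 of the 6, ATP8 excepted, every library of group B lay above every library of group A, as it did for 20.5% of the genes tested. The choice of the genes rested on group B libraries as well, so this comparison is not fully independent of the choice of genes.

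Markers of several cell types moved with Cu/ES as well, in FPKM as deposited. On that scale most genes were lower in group B. The median change from group A to B over the 10615 genes was -1.10 in log2 units. After median-ratio scaling that median was -0.03. The marker sums were not rescaled, and whether the lower ones fell further than the typical gene was not tested. The summed level of 8 hepatocyte markers ran from 599 to 651 FPKM in the libraries of untreated cells, from 256 to 306 with Cu/ES, from 185 to 225 with Cu/ES and TCA, and from 701 to 721 with TCA alone. Nearly all of this sum was Krt8 and Krt18. By means of groups A and B, Krt8 went from 344 to 183 FPKM and Krt18 from 285 to 81.9. The other markers of the list stood higher in group B, led by Afp (2.56 to 19.2 FPKM), with the rest at a mean of at most 1.86 there. For 4 mesenchymal markers (Vim foremost, Col1a2 near 0) the sum ran from 2110 to 2326, 297 to 353, 154 to 195 and 1806 to 1928 FPKM in groups A, B, C and D. For 4 bile duct markers it ran from 230 to 326, 111 to 140, 130 to 136 and 158 to 246 FPKM, and Sox9 among them went from 10.6 to 50.9 FPKM by means of groups A and B.

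For 3 endothelial markers the sum was at most 1.16 FPKM in untreated cells, from 6.76 to 10.5 with Cu/ES, from 16.5 to 19.7 with Cu/ES and TCA, and at most 1.25 with TCA alone, most of it Pecam1, while Kdr stayed at a mean of at most 0.563. For 3 leukocyte markers it ran from 12.9 to 16, 7.91 to 9.69, 6.57 to 9.60 and 16.1 to 19.0 FPKM, nearly all of it Cd74, with Ptprc at a mean of at most 0.0766. The part of these shifts in the levels of the mitochondrial genes was not tested.

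The scale of the values sets the size of these differences. Over all genes tested, the log2 fold changes of group B vs. A had a median of -1.10 as deposited and -0.03 after median-ratio scaling. Relative to the deposited median, the 6 genes stood 1.70 (COX1) to 2.42 (ATP6) higher on the log2 scale. After median-ratio scaling their log2 fold changes were 2.37 for CYTB, 1.89 for COX1, 2.36 for COX2, 1.95 for COX3, 2.57 for ATP6 and 2.10 for ATP8, and all 6 were called, against 42.8% of the genes tested. In bulk RNA, less nuclear RNA per cell and more mitochondrial RNA per cell cannot be told apart, nor can fewer cells of a kind from less RNA in each.

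The share of all reads counted on genes showed the same difference in other units. Of these reads in untreated cells, 1.43% ± 0.0345 fell on the 6 genes, against 2.39% ± 0.0661 with Cu/ES, 3.02% ± 0.122 with Cu/ES and TCA, and 1.39% ± 0.0487 with TCA alone (mean ± SD over 3 libraries). As a share of the FPKM sum the means were 2.64%, 3.49%, 4.67% and 2.61%. Groups A and D overlapped on both measures, while groups A and B did not. With 3 libraries against 3, an exact permutation test cannot go below p = 0.1, and no p is given for sums over genes chosen with results known.

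**Figure D3:**
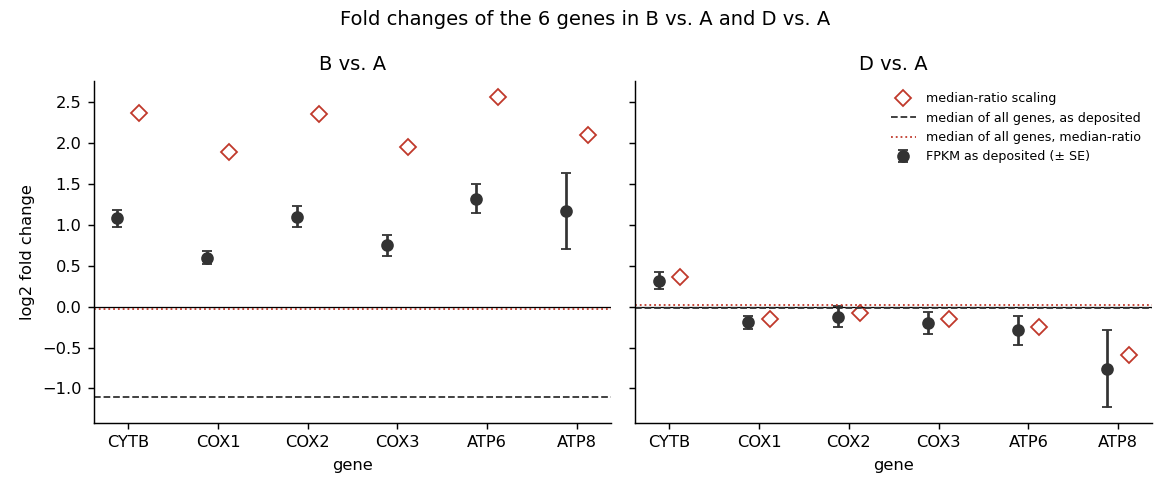
Log2 fold changes of the 6 genes in group B vs. A (left) and D vs. A (right); filled circles are FPKM as deposited with the limma SE, open diamonds are median-ratio scaled, and the horizontal lines mark the median of the 10615 genes tested (-1.10 dashed and -0.03 dotted on the left). All 6 genes lie above 0 on the left, and CYTB alone lies above 0 on the right.

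The 7 ND genes, which encode the complex I subunits of the same genome, spread more widely. In group B vs. A, 5 of 7 were called higher and none lower, with a median log2 fold change of 1.23. By median-ratio scaling 7 of 7 were called higher, with a median of 2.47. As deposited they ran from 2.23 ± 0.18 for ND2 (limma, adjusted p = 1.74e-08) to 0.05 ± 0.09 for ND5 (limma, adjusted p = 0.620), which was at 1.33 and called by median-ratio scaling (limma, adjusted p = 1.14e-08). The cytochrome and ATPase genes lay between these ends, with a median of 1.09. Of all reads on the 13 genes, the 6 held 68.9% ± 2.68 in untreated cells, 56.6% ± 2.94 with Cu/ES, 61.3% ± 1.74 with Cu/ES and TCA, and 68.3% ± 1.69 with TCA alone (mean ± SD over 3 libraries). On the log2 scale the mean of the 6 relative to the mean of the ND genes went from -0.604 ± 0.173 without treatment to -0.856 ± 0.0963 with Cu/ES, with no overlap. With a pseudocount of 0.1 in place of 1 the means were -0.648 and -0.878, and the groups overlapped.

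Nuclear genes of the same complexes did not move together in group B. For complex III, the partner of CYTB, 1 of 9 nuclear genes was called higher and 7 lower, with a median log2 fold change of -0.82. Over all genes tested 20.1% were called higher and 72.0% lower, with a median of -1.10. Uqcrh, the hinge protein of the complex, rose from 170 ± 13.8 to 286 ± 18.6 FPKM (log2 fold change 0.75 ± 0.09, limma, adjusted p = 2.72e-06). Uqcrc2, a core subunit, fell from 84.3 ± 0.863 to 9.50 ± 1.08 FPKM (log2 fold change -3.03 ± 0.08, limma, adjusted p = 1.84e-13). CYTB exceeded the mean of these 9 genes by 4.95 ± 0.224 on the log2 scale in group A and by 6.84 ± 0.197 in group B (mean ± SD, n = 3).

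On the deposited scale, complex IV differed from complex III in direction. After median-ratio scaling both medians were positive, 1.79 for complex IV and 0.44 for complex III. Of 15 nuclear genes of complex IV tested, 11 were called higher and 3 lower, with a median of 0.51, close to the 0.60 of COX1. Cox6b2, an isoform known from testis, went from 0 FPKM in every library of group A to 3.43 ± 0.842 in group B (limma, adjusted p = 3.21e-09). Cox7a1, the isoform of heart and muscle, fell from 4.95 ± 1.45 to 0.723 ± 0.727 FPKM (log2 fold change -1.84 ± 0.24, limma, adjusted p = 3.76e-06). COX1 exceeded the mean of the nuclear genes of complex IV by 6.72 ± 0.0386 in group A and 6.95 ± 0.0814 in group B on the log2 scale, a difference of 0.229, which was 0.121 with the smaller pseudocount. COX2 relative to these genes went from -0.918 ± 0.220 to -0.190 ± 0.269, and COX3 went from -2.18 ± 0.218 to -1.81 ± 0.178.

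For ATP synthase, 6 of 17 nuclear genes were called higher and 6 lower in group B, with a median of -0.08. Atp5l, a membrane subunit, rose from 105 ± 5.44 to 275 ± 6.93 FPKM (log2 fold change 1.39 ± 0.10, limma, adjusted p = 6.16e-09). Atp5c1, the central stalk subunit, fell from 129 ± 3.82 to 32.3 ± 1.31 FPKM (log2 fold change -1.96 ± 0.07, limma, adjusted p = 2.99e-12). ATP6 relative to the nuclear genes of ATP synthase went from -2.14 ± 0.239 to -0.754 ± 0.248 on the log2 scale. Median-ratio scaling raised the calls to 6 of 9 higher for complex III, 13 of 15 for complex IV and 15 of 17 for ATP synthase, with 1 called lower in each and medians of 0.44, 1.79 and 1.19, so the direction of the complex III and ATP synthase lists turns with the scale.

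Group C vs. B asked what TCA added to Cu/ES. Measured values of 5 of the 6 genes were higher in group C by means, ATP8 being the exception, and this direction was among the results known when the genes were picked. The log2 differences were 0.42 for CYTB, 0.29 for COX1, 0.35 for COX2, 0.47 for COX3, 0.19 for ATP6 and -0.06 for ATP8, with a median of 0.32 against -0.03 over all genes tested. Every library of group C lay above every library of group B for 3 genes, CYTB, COX1 and COX3, which was so for 22.0% of the genes tested. The second library of group C held the highest ATP6 value of the series, 118 FPKM, and without it the ATP6 difference was -0.07.

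Many nuclear genes of the same complexes were called lower in this comparison. Of 9 nuclear genes of complex III, 7 were called lower in group C vs. B and none higher (limma, median -0.62, with 7 called lower by median-ratio scaling too). Of 15 for complex IV, 10 were called lower and 1 higher, with a median of -0.33. Of 17 for ATP synthase, 13 were called lower and none higher, with a median of -0.41. Over all genes tested, 20.4% were called higher and 23.6% lower.

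Named by the largest called changes, Uqcr11 of complex III fell from 52.5 ± 4.78 to 22.8 ± 1.72 FPKM (log2 fold change -1.17 ± 0.09, limma, adjusted p = 1.16e-06). Cox7a2 of complex IV fell from 121 ± 3.35 to 71.7 ± 13.4 FPKM (limma, adjusted p = 1.75e-04), while Cox6b2 rose from 3.43 ± 0.842 to 7.63 ± 1.89 FPKM (limma, adjusted p = 1.65e-04). Atp5g1, which encodes the c subunit of the proton-driven ring next to ATP6, fell from 59.7 ± 7.16 to 28.5 ± 2.24 FPKM (log2 fold change -1.03 ± 0.10, limma, adjusted p = 3.47e-06).

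Set against these partners, each of the 6 genes stood higher in group C than in group B. On the log2 scale, CYTB relative to the complex III genes was 6.84 ± 0.197 in group B and 7.87 ± 0.0803 in group C. COX1 relative to the complex IV genes was 6.95 ± 0.0814 and 7.50 ± 0.325, COX2 was -0.190 ± 0.269 and 0.417 ± 0.255, and COX3 was -1.81 ± 0.178 and -1.08 ± 0.0729. ATP6 relative to the ATP synthase genes was -0.754 ± 0.248 and -0.0525 ± 0.295, and ATP8 was -4.13 ± 0.783 and -3.68 ± 0.565 (mean ± SD, n = 3). Libraries of the 2 groups overlapped only for ATP8, and how often such values separate for other genes was not examined. The direction of the 6 genes in this comparison was known when they were picked. The values relative to partners also hold the lower levels of the nuclear genes, and ATP8 by itself differed by -0.06. Being taken within a library, the values relative to partners do not depend on the library's scale except through the pseudocount.

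**Figure D4:**
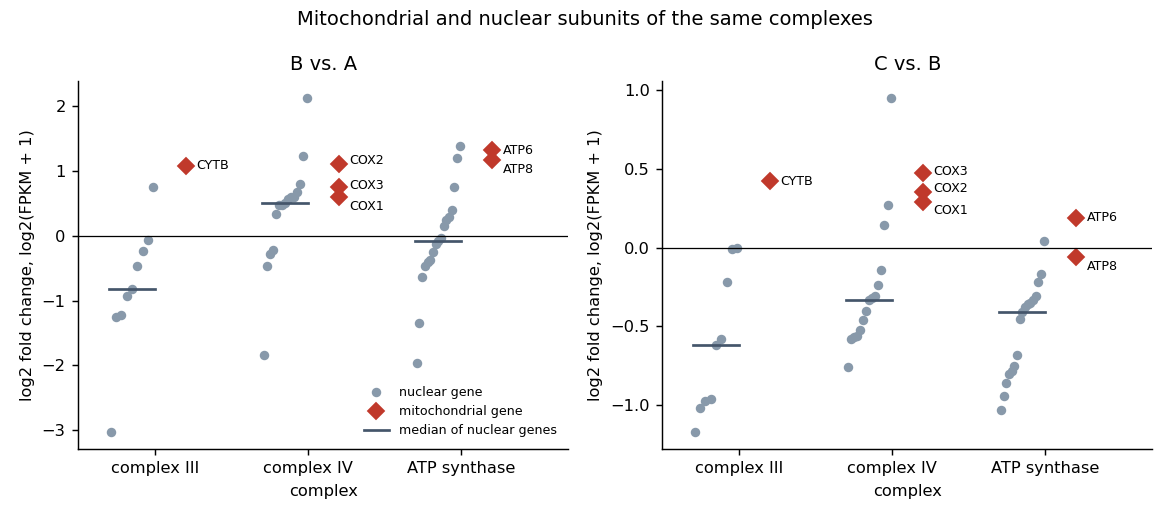
Log2 fold changes on the log2(FPKM + 1) scale of the nuclear genes (gray circles, with their median as a bar) and the mitochondrial genes (red diamonds) of complex III, complex IV and ATP synthase, in group B vs. A (left) and C vs. B (right). On the left the medians of the nuclear genes are -0.82, 0.51 and -0.08; on the right they are -0.62, -0.33 and -0.41, and all mitochondrial genes but ATP8 lie above 0.

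Group D vs. A asked what TCA did without Cu/ES, with the same group A libraries as in group B vs. A. CYTB rose from 3207 ± 443 to 3996 ± 270 FPKM (log2 fold change 0.32 ± 0.10, limma, adjusted p = 0.0359). It was the 1 gene of 6 called higher, against 10.5% of all genes tested, and 0 of 6 were called lower, against 11.5%. Over the alternatives other than quantile normalization, the adjusted p of CYTB by limma ran from 0.00801 to 0.164. Of 19 settings 8 called CYTB, and only 1 of the 6 fits that left out a library did. Quantile normalization, among the settings that did not, fixed the difference at 0.00, since CYTB ranked 3 in every library of groups A and D. COX1 was measured 0.19 lower on the log2 scale, at 6014 ± 400 FPKM in group D (SE 0.08, limma, adjusted p = 0.0877), with no overlap between the groups.

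COX2, COX3, ATP6 and ATP8 had log2 differences of -0.12, -0.20, -0.29 and -0.76 in group D vs. A, with adjusted p-values by limma of 0.573, 0.286, 0.278 and 0.268. At an unadjusted p under 0.05, CYTB and COX1 passed, and limma-voom on the recovered reads called COX1 lower (adjusted p = 0.0468). ATP6 lay lower in every library of group D than in any of group A. Thus COX1 and ATP6 were the 2 of 6 genes with every library lower, and CYTB was the 1 with every library higher, against 23.5% and 20.7% of the genes tested.

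CYTB and COX1, the most abundant pair, shifted against each other. The ratio of COX1 to CYTB FPKM was 2.31, 1.81 and 2.38 in group A, 1.64, 1.36 and 1.64 in group B, 1.55, 1.21 and 1.51 in group C, and 1.58, 1.31 and 1.65 in group D. All libraries of groups B, C and D lay below all of group A. The ratio was chosen after the data were seen, and how often ratios of other genes separate in this way was not examined. The ratio is free of library scale, and its mean fell by 0.619 in group B and fell by 0.653 in group D, both relative to group A. Groups B, C and D overlapped on this ratio.

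The library numbered 2 had the lowest COX1 to CYTB ratio in each of the 4 groups. It also had the highest CYTB value and the lowest COX1 value in 4 of 4 groups, and ND4 was likewise highest there in 4 of 4. What the numbers 1 to 3 stand for is not given in the sources used here, and its part in these values was not tested.

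**Figure D5:**
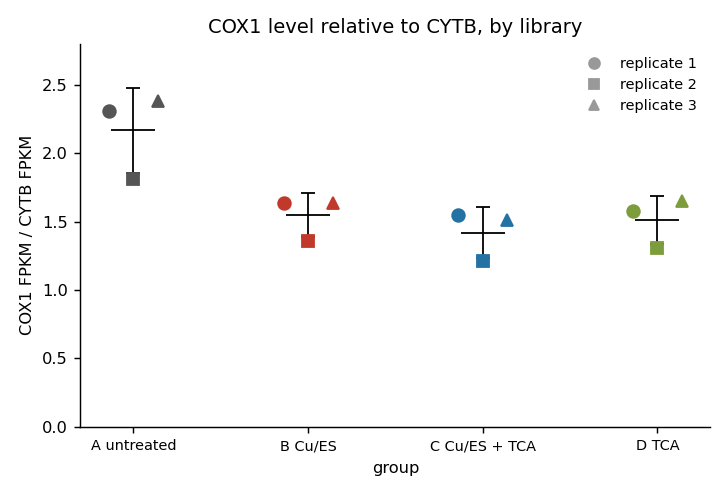
Ratio of COX1 FPKM to CYTB FPKM in each library by group, with symbols for the replicate numbers and the mean ± SD (n = 3) as black bars. Group A lies between 1.81 and 2.38, the other groups lie between 1.21 and 1.65, and the square of replicate 2 is the lowest in each group.

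Lists of genes that act on the mitochondrial RNAs are read against the 72.0% of all genes tested that were called lower in group B. Of 7 genes of mitochondrial transcription tested, 1 was called higher and 6 lower, with a median log2 fold change of -1.79, below the -1.10 of all genes. Tfb2m, which opens the promoter for the mitochondrial RNA polymerase, rose from 5.93 ± 0.513 to 13.3 ± 0.668 FPKM (log2 fold change 1.05 ± 0.08, limma, adjusted p = 1.90e-08). Tefm, the transcription elongation factor, fell from 8.97 ± 0.874 to 0.146 ± 0.119 FPKM (limma, adjusted p = 7.31e-13). Of 9 genes of mitochondrial DNA maintenance, 1 was called higher and 7 lower (median -1.61). Polg2, the accessory subunit of the mitochondrial DNA polymerase, rose from 3.87 ± 1.11 to 8.09 ± 1.30 FPKM (limma, adjusted p = 2.48e-05), and Dguok, a nucleoside kinase, fell from 10.4 ± 0.966 to 0.444 ± 0.133 FPKM (limma, adjusted p = 1.64e-12).

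Of 23 genes of mitochondrial RNA processing, stability and decay, 4 were called higher and 17 lower in group B vs. A (median -1.20), which is near the share of all genes, and by median-ratio scaling 9 were called higher and 12 lower. Supv3l1, the helicase of the mitochondrial RNA degradation complex, rose from 9.18 ± 0.430 to 31.1 ± 2.68 FPKM (log2 fold change 1.65 ± 0.08, limma, adjusted p = 5.68e-11). Fastk, an RNA-binding protein of the mitochondrion, fell from 29.5 ± 1.58 to 1.95 ± 0.169 FPKM (limma, adjusted p = 7.75e-14). Of 10 genes that serve translation of these mRNAs, 9 were called lower and none higher (median -1.55), with Tsfm, an elongation factor, going from 20.4 ± 1.13 to 1.01 ± 0.248 FPKM (limma, adjusted p = 1.87e-12).

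Assembly factors of the 3 complexes were set against the same 72.0%. Of 17 genes of complex IV assembly and copper delivery, 12 were called lower and none higher (median -1.41), again near the share of all genes, and Coa3 went from 60.5 ± 6.19 to 4.95 ± 1.23 FPKM (limma, adjusted p = 9.38e-12). All 5 tested for complex III assembly and all 4 for ATP synthase assembly were called lower, with medians of -1.06 and -2.03. Uqcc3 of the former went from 12 ± 1.65 to 0.271 ± 0.240 FPKM (limma, adjusted p = 3.97e-11) and Tmem70 of the latter from 21.1 ± 1.03 to 1.48 ± 0.255 FPKM (limma, adjusted p = 6.22e-13). By median-ratio scaling, 7 of the 17 complex IV assembly genes were called higher and 10 lower, with a median of -0.48. On that scale the medians were -0.90 for transcription, -0.76 for DNA maintenance, -0.22 for RNA processing, -0.54 for translation and -1.13 for ATP synthase assembly, and that of complex III assembly changed sign, to 0.09, with 1 gene called higher and 2 lower.

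In group C vs. B these lists changed less. They are read against the 20.4% of all genes tested that were called higher and the 23.6% called lower. No gene of mitochondrial transcription was called in either direction. Of the 9 maintenance genes 2 were called higher, Polg2 leading from 8.09 ± 1.30 to 21.4 ± 2.36 FPKM (log2 fold change 1.30 ± 0.14, limma, adjusted p = 1.16e-05). Of the 23 RNA genes 1 was called higher, Supv3l1 (31.1 ± 2.68 to 39.3 ± 2.58 FPKM, limma, adjusted p = 0.00428), and 9 lower, Hsd17b10 most (27.9 ± 1.33 to 15.7 ± 1.74 FPKM, limma, adjusted p = 7.49e-06). Hsd17b10 is a subunit of the enzyme that cuts mitochondrial tRNAs out of the precursor. Of the 10 translation genes 3 were called lower, Gfm1 most (8.67 ± 0.656 to 4.68 ± 0.511 FPKM, limma, adjusted p = 6.24e-06).

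Among the 17 complex IV assembly genes, 2 were called higher and 5 lower in group C vs. B, against 20.4% and 23.6% of all genes tested. Surf1, which helps to insert heme into COX1, rose from 25.0 ± 2.94 to 39.9 ± 2.52 FPKM (log2 fold change 0.66 ± 0.08, limma, adjusted p = 3.32e-05), and Pet100 fell from 4.87 ± 0.764 to 2.44 ± 0.273 FPKM (limma, adjusted p = 8.08e-04). For complex III assembly, 1 was called higher (Bcs1l, 1.34 ± 0.184 to 1.86 ± 0.101 FPKM, limma, adjusted p = 0.0123) and 1 lower (Uqcc2, 42.7 ± 2.82 to 22.5 ± 1.24 FPKM, limma, adjusted p = 3.92e-06). For ATP synthase assembly 2 were called lower, Fmc1 most (6.94 ± 1.48 to 4.19 ± 0.599 FPKM, limma, adjusted p = 0.0214).

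In group D vs. A few genes of these lists were called, and of all genes tested 10.5% were called higher and 11.5% lower. The nuclear genes gave 1 higher of 9 for complex III (Uqcrq, 68.6 ± 6.67 to 101 ± 21.8 FPKM, limma, adjusted p = 0.0209), none of 15 for complex IV, and 1 higher and 1 lower of 17 for ATP synthase. The last pair both encode the c subunit, Atp5g1 rising from 62.7 ± 4.31 to 78.8 ± 6.60 FPKM (limma, adjusted p = 0.0279) and Atp5g2 falling from 324 ± 17.6 to 274 ± 17.2 FPKM (limma, adjusted p = 0.0198). For complex IV assembly 2 were called higher and 1 lower. Cox10, an enzyme on the path to the heme of COX1, rose from 4.93 ± 0.350 to 7.85 ± 0.409 FPKM (limma, adjusted p = 0.00111), and Surf1 fell from 23.7 ± 0.164 to 19.0 ± 0.959 FPKM (limma, adjusted p = 0.0172).

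The remaining lists in group D vs. A are set against the same 10.5% of all genes tested called higher and 11.5% lower. Of 7 transcription genes 2 were called higher, Mterf3 most (5.10 ± 0.370 to 6.79 ± 0.325 FPKM, limma, adjusted p = 0.0191). Of 23 RNA genes 5 were called higher, Rexo2 most (33.5 ± 0.897 to 49.8 ± 4.79 FPKM, limma, adjusted p = 0.00120). Of 9 maintenance genes, Dguok alone was called, at 7.23 ± 0.496 FPKM against 10.4 ± 0.966 in group A (limma, adjusted p = 0.00575). None of the 10 translation genes, the 5 complex III assembly genes, the 4 ATP synthase assembly genes or the 7 ND genes was called by limma, and of the ND genes 2 had an unadjusted p under 0.05.

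The genes outside the mitochondrial genome whose log2(FPKM + 1) values followed the mean of the 6 genes most closely over the 12 libraries were Sphk1, Fam219a, Mreg, Lamp1 and Rpl22l1, with Pearson's r of 0.984, 0.982, 0.981, 0.980 and 0.979. Lamp1, a lysosomal membrane protein, stood at 179 FPKM in untreated cells, 479 with Cu/ES, 614 with Cu/ES and TCA, and 155 with TCA alone, by means. The single members correlated with their own mean with r between 0.862 (ATP8) and 0.973 (COX3), and 452 of the 10615 genes tested reached 0.95. The points share 4 groups, the library totals and the scale, and the values are descriptive.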

How the data were processed

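The 6 genes and the gene lists were chosen with earlier results of these data known. The authors deposited FPKM values, 1 column per library, made from polyadenylated RNA. The submitters' processing notes name fastp, HISAT2, HTSeq and GRCm39; versions, read length and counting settings are not given in the sources used here. Steps between low FPKM values gave whole reads (within 0.01 read for 22196 of 22212 genes), with totals of 29115011 to 39782142 reads per library, and read numbers cover counting error only. The totals match the reads counted on genes to within rounding, so reads not counted on a gene are outside them.

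Values were fitted as log2(FPKM + 1), a scale that understates changes of low genes, with limma 3.58.1 in R 4.3.3 for the 10615 genes with a mean of at least 1 FPKM. The fit had 4 group terms, a mean-variance trend, and Benjamini-Hochberg adjustment of two-sided p-values. The study's own test, a model of counts, was not used because the values are FPKM. Lists held 137 genes in 12 lists, 1 of them 6 nuclear copies with no row. Named genes are the 6, the ND genes at either end, the called gene of each list with the largest change in either direction, and the 5 most similar genes. Ratios between genes within a library were added after the data were seen.

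Same-numbered libraries of groups A and B deviated together, though weakly (r of 0.142 to 0.174, other pairs -0.131 to 0.00440). In group D vs. A (0.0872 to 0.579) and C vs. B (0.00502 to 0.277) not every same-numbered pair passed 0.1. Other pairs reached 0.367 and 0.181 there. The numbers, from the titles, may pair the libraries, which is not stated, so the main fit had no block and a replicate block was an alternative. Alternatives were another pseudocount, other filters, 4 other scalings, the block, no trend, only the groups compared, limma-voom with TMM factors on recovered reads, and each library left out. Sequences come from GENCODE M21.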

Additional observations from a re-analysis of the deposited data

Results flagged for a closer look

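COX1 was flagged because TCA went with opposite differences in the 2 backgrounds. Every library of group C lay above every library of group B, a log2 difference of 0.29, and every library of group D lay below every library of group A, a log2 difference of -0.19. Such separation was seen for 22.0% of the genes tested in group C vs. B and for 23.5% in group D vs. A. The D vs. A difference of COX1 was not called (limma, adjusted p = 0.0877, and 0.390 with median-ratio scaling), and 1 of 19 settings called it. Quantile normalization, 1 of the 19, fixed this difference at 0.00, since COX1 ranked 1 in every library. The C vs. B difference was known when the genes were picked, and the difference between the 2 was not tested.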

How the results depend on the processing

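In group B vs. A, between 5 and 6 of the 6 genes were called higher when each library was left out in turn, ATP8 being the gene lost. CYTB, COX2, COX3 and ATP6 were called in 19 of 19 settings and COX1 in 18 of 19. Quantile normalization reversed CYTB, to a log2 fold change of -0.64, and called 1 gene lower. COX1 was then at 0.00 by construction, since it ranked 1 in every library, and CYTB went from rank 3 in group A to rank 7 or 8 in group B. ATP8 was not called with a pseudocount of 0.1 (adjusted p = 0.0614), without a filter (0.1), with TPM scaling (0.0946), with scaling to genes outside the mitochondrial genome (0.0724), or without replicate 2 or 3 of group A (0.0738 and 0.134), by limma in each case. A paired fit, the replicate block, called 6 of 6 genes higher in group B vs. A, and with block and median-ratio scaling together, added after the data were seen, 6 as well. The replicate block changed no call of the 6 genes. ATP8, with a mean of 4.11 FPKM, was not tested with a minimum mean of 5 FPKM.

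In group D vs. A the single call, CYTB, became 0 with a pseudocount of 0.1, without a filter, with median-ratio scaling, with quantile normalization, with block and median-ratio scaling together, and with only the groups compared in the fit. It ran from 0 to 1 when libraries were left out, and it held without replicate 2 of group A only. With quantile normalization the CYTB difference was 0.00 by construction, since CYTB ranked 3 in every library of groups A and D. Limma-voom called 1 gene lower, COX1. The cause was not tested. The difference between groups D and A in the share of the FPKM sum, -0.0290 percentage points, ran from -0.0839 to 0.0396 when libraries were left out, and it was above 0 without the first library of group D (0.0396) or the second of group A (0.0141). COX2 relative to the complex IV genes in D vs. A, -0.103, was 0.0191 without the first library of group A and ran from -0.216 to 0.0191. The median C vs. B difference of the 6 genes ran from 0.29 to 0.38 when libraries were left out. A low number of reads limits ATP8 most, and the unknown counting of reads that match more than 1 place may limit COX2, COX3 and ATP6. Whether it also limits ATP8 was not examined, since only annotated transcripts were searched for copies.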
